A study of Mus musculus with 32 samples.

Results

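Nucleoporins and nuclear transport receptors are the genes of the gate between nucleus and cytoplasm and of the carriers that move cargo through it. They were taken by symbol and not by expression value, though earlier results of these data were known. The rule covered the numbered Nup, Kpna, Ipo, Xpo and Tnpo families plus Kpnb1, Ran, Rangap1, Ranbp1, Ranbp2, Cse1l and Nutf2. This gave 50 of the 24013 genes in the table of developmental stages and 50 of the 22536 genes in each of the knockdown tables. They comprised 22 nucleoporins, 6 importin alpha genes, 11 import receptors of the importin beta family, 6 exportins, 4 genes of the Ran cycle and Nup62-il4i1, a row for a read-through transcript.

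RNA sequencing of polyadenylated RNA, by a modified Smart-seq2 protocol for very small numbers of cells, covered 32 mouse samples. The siRNA-injected groups were 8-cell embryos with Nr5a2 knockdown (KD, 4 libraries) or control injection (4), and blastocysts with Gata4 KD (4) or control injection (3), all of strain C57BL/6N x DBA/2N, with the zona removed, after culture in CZB medium with glutamine. An siRNA lowers a transcript and need not remove it. The uninjected series held MII oocytes of superovulated C57BL/6N females taken 20 h after hCG (2 samples), then 2 samples each of zygotes and of embryos at the early 2-cell, 2-cell, 4-cell and 8-cell stage, and 3 of the inner cell mass (ICM), all from C57BL/6N females that received 5 IU of PMSG and 5 IU of hCG and were mated with DBA/2N males. The ICM was isolated by immunosurgery, which removes the outer trophectoderm, and the mouse embryonic stem cells (mESC, 2) were the single line R1 grown in LIF and serum. Values are FPKM, which counts fragments relative to transcript length and sequencing depth, so levels can be set side by side between genes. The stage table held 1 deposited value per gene and stage and therefore allowed no test, while the knockdown tables held 1 column per library. Since no label ties a library to its own culture or litter, every p-value here reflects the spread among these libraries alone, and that spread may be technical.

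The nuclear pore is built from scaffold rings (the Y complex and the inner ring), a central channel filled with flexible proteins, filaments on the cytoplasmic side and a basket on the nuclear side. Importin beta and its relatives carry cargo through the channel, often by way of an importin alpha adaptor that binds the nuclear localization signal. Exportins carry proteins and RNA outwards, and the small GTPase Ran, in its GTP form inside the nucleus, releases imported cargo and loads exported cargo. In the early mouse embryo, oocyte transcripts are used and cleared while the embryonic genome is switched on at the 2-cell stage, so a pore or carrier can be supplied by the oocyte, by the embryo or by both.

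Promoters are shown for 4 genes that stood at the ends of the stage series, Kpna7 and Ipo8 with high values in the oocyte, and Ran and Tnpo3 with low values there. The windows span 300 bases around the gene start, from RefSeq on build GRCm38.p6, and capitals mark the motif matches named after the sequences. They lie at chr5:145009587-145009886 (minus strand) for Kpna7, chr6:148831418-148831717 (minus strand) for Ipo8, chr5:129019906-129020205 (plus strand) for Ran and chr6:29609800-29610099 (minus strand) for Tnpo3.
Kpna7: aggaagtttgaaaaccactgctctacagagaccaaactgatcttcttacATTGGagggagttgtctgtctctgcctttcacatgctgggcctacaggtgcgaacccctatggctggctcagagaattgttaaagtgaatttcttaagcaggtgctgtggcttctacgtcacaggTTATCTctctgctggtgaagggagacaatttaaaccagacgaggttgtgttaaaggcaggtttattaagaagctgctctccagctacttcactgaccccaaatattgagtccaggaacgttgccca
Ipo8: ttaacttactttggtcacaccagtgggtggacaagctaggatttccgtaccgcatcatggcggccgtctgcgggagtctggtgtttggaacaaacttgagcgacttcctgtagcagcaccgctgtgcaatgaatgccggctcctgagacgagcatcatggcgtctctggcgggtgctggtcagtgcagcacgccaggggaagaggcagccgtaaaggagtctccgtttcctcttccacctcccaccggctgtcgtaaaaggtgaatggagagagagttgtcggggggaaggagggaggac
Ran: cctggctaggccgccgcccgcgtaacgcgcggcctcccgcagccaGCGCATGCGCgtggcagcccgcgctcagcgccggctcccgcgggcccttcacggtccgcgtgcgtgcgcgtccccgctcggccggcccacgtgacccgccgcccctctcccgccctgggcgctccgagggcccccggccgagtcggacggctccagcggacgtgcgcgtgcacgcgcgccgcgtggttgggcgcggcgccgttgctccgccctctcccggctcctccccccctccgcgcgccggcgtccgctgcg
Tnpo3: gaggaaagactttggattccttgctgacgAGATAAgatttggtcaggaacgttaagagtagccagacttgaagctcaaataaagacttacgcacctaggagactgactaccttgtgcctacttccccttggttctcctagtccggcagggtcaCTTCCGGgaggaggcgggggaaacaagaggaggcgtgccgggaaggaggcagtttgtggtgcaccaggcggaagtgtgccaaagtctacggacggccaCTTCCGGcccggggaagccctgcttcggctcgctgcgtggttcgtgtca
The Kpna7 window had 46.67% GC and 4 CpG dinucleotides, with a CCAAT box of NF-Y on the reverse strand and a GATA match. Ipo8 had 57.67% GC and 17 CpG and held none of the motifs. The Ran window was 82% GC with 58 CpG and an NRF1 match. Tnpo3 had 56.67% GC and 17 CpG, with 2 ETS matches and 1 GATA match.

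Among the members, 39 had promoter windows, 47 in all, out of 32851 windows of this length. Their median was 64.33% GC and 28 CpG, against 52.67% GC and 7 CpG over all windows. The motifs were searched on both strands and no motif's letters contain another's. The palindromic NRF1 motif lay in 10.6% of member windows, against 0.971% of all windows, and the 5 genes that held it were Nup107, Nup50, Nup62, Ran and Xpo5. The NF-Y motif CCAAT lay in 51.1% of member windows, against 37.4% of all, and the ETS motif CCGGAAG in 14.9%, against 8.86%. The shares were 10.6% of member windows, against 13.6% of all, for TATAAA and 6.38%, against 11.2%, for the GATA motif AGATAA. The NR5A2 motif CAAGGNCA was in none of the 47 member windows and in 6.71% of all windows. The windows set against the members were not matched for GC or CpG content, so the shares are not corrected for it. Such matches describe letters in a window and are not shown to be bound.

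Read totals were not used here, and the steps between low FPKM values showed a 2.88-fold span of depth across the 8-cell knockdown libraries. Among the blastocyst libraries, 4 held 37959 to 44718 FPKM of Rn45s, a ribosomal RNA precursor row, and the other 3 (control 2, KD 1 and KD 2) listed it at 0, with 1.58-fold and 1.78-fold spans of depth within these sets. The members together made up 0.405% to 0.666% of all FPKM in a stage, 0.408% to 0.487% in an 8-cell knockdown library and 0.177% to 0.344% in a blastocyst library. The 7 oocyte marker genes, among them Gdf9 and Zp3, summed to 46.4 FPKM in 8-cell embryos and 11176 FPKM in MII oocytes, where all 7 were at 1 FPKM or more. Of 6 cumulus and granulosa markers, Cyp19a1 reached 24.7 FPKM in MII oocytes and the other 5 were under 1 FPKM. In the ICM all 7 epiblast markers were at 1 FPKM or more (summed 1040 FPKM), as were all 7 trophectoderm markers (171 FPKM). The part of other cells in the member values was not tested, and in such bulk samples fewer cells of a type and less RNA per cell cannot be told apart.

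Of 21 nucleoporins 9 had their highest stage value in MII oocytes, and 18 of 27 carriers and Ran cycle genes (66.7%) had theirs at the 4-cell stage or later, as had 50.2% of all genes. The difference between these role groups was not tested. All genes together summed to 495643 FPKM in MII oocytes and to between 234738 and 360432 FPKM in the other stages. Peaks were not counted again after scaling. Of the 50 members 48 reached 1 FPKM in some stage, and 13 of these had their highest value in MII oocytes, as had 24.3% of all genes at that level. These 13 included 9 nucleoporins (Nup37, Nup62, Nup85, Nup88, Nup93, Nup98, Nup107, Nup188 and Nup214) and the receptors Ipo8, Tnpo1, Xpo5 and Xpo7. A further 5 peaked in zygotes, 3 in early 2-cell, 3 in 2-cell, 7 in 4-cell and 7 in 8-cell embryos, 5 in the ICM and 5 in mESC. The background shares for these stages were 8.09%, 8.06%, 9.32%, 11.4%, 9.27%, 17.8% and 11.8%. The 7 with their peak at the 8-cell stage were Ipo5, Ipo7, Ipo11, Kpna1, Nup133, Nup205 and Tnpo2. All stage values below run in the order MII oocyte, zygote, early 2-cell, 2-cell, 4-cell, 8-cell, ICM and mESC where no stage is named.

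**Figure D1:**
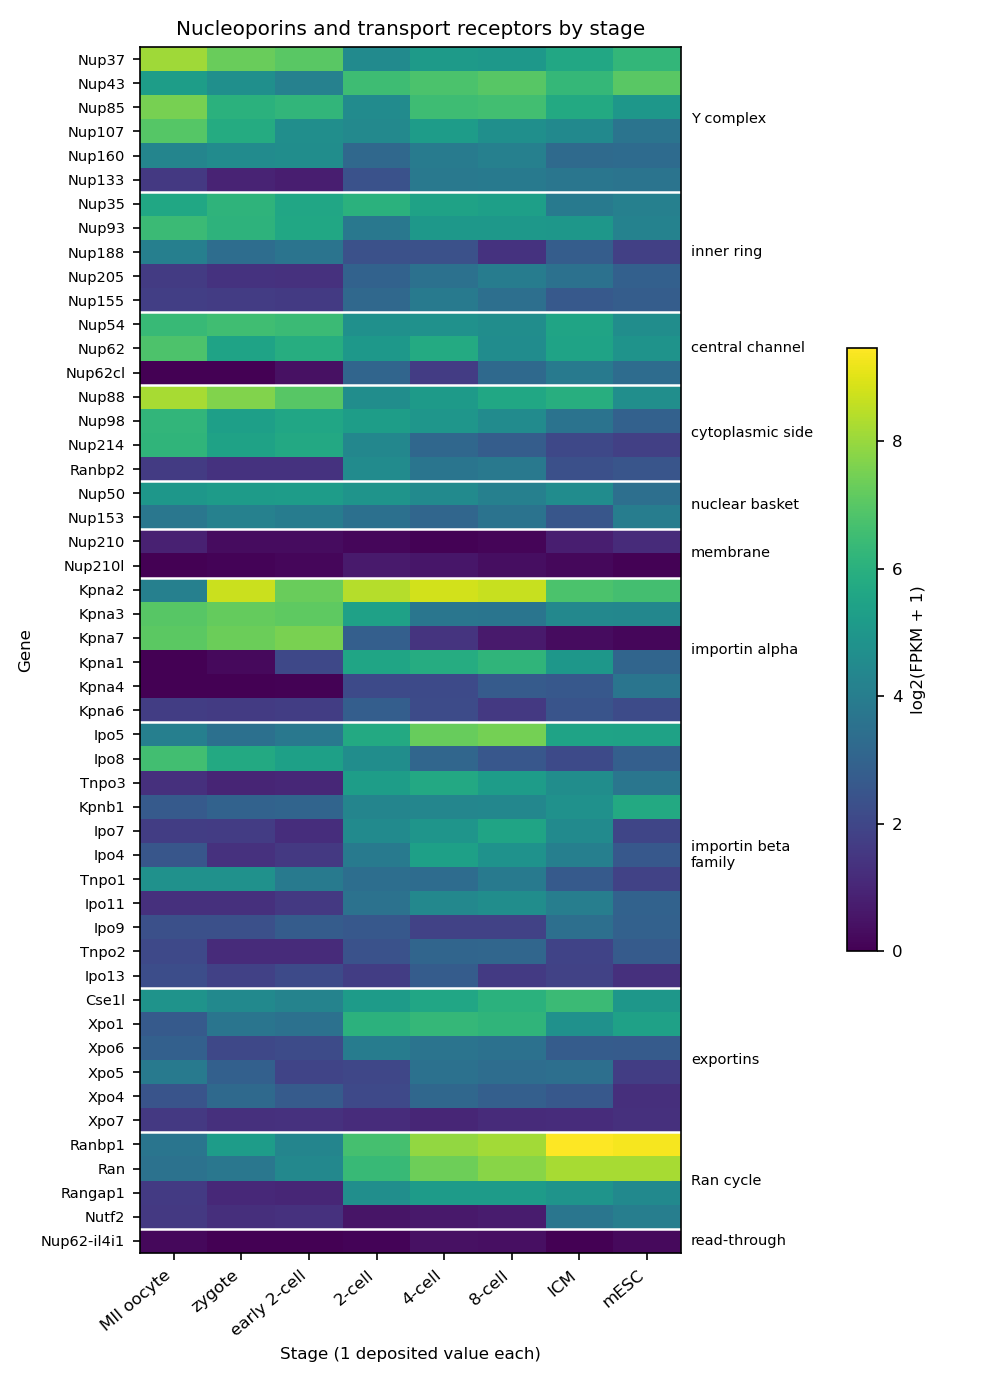
Level of each of the 50 members (rows, grouped by role) in the 8 stages (columns), as log2(FPKM + 1), 1 deposited value per square. Most nucleoporin rows are brightest at the left, Kpna1, Tnpo3 and Rangap1 are dark up to the early 2-cell stage, and Ran and Ranbp1 are brightest in ICM and mESC.

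The RNA levels of the 6 members grouped here under the Y complex, the scaffold of the outer rings, were uneven in oocytes and early embryos. They were more even from the 4-cell stage on. Nup37, a peripheral Y complex subunit, stood at 278, 157, 129.8, 22.1, 35.0, 31.6, 49.55 and 75.8 FPKM. Nup43, another peripheral subunit, ran at 37.4, 25.2, 16.6, 89.7, 110.0, 126, 78.2 and 129.7 FPKM. Nup37 was thus the higher of these up to the early 2-cell stage and Nup43 from the 2-cell stage on. Nup133, a stem subunit, was the lowest of the 6 up to the 8-cell stage, at 2.00 FPKM in MII oocytes, 0.725 FPKM in early 2-cell and 13.6 FPKM in 8-cell embryos. The ratio of the highest to the lowest of these 6 was 139, 169.6 and 179 in the first 3 stages, 21.2 in 2-cell embryos, and between 8.34 and 14.4 in the later stages. Nup98, grouped here with the cytoplasmic side alone, is not in these ratios. Subunits outside the symbol rule, such as Sec13 (283 FPKM in MII oocytes), are not in them either. Nup85 and Nup107 were both highest in MII oocytes, at 180.4 and 123 FPKM, and Nup160 stayed between 8.13 and 23.8 FPKM. The summed level of the 6 genes was 640, 327, 269, 167, 298, 309, 223 and 268 FPKM.

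In the inner ring, which holds the pore to the membrane and lines the channel, the genes also divided. Nup93, its organizing subunit, stood at 86.8, 68.8, 48.3, 12.7, 32.1, 31.5, 31.1 and 17.5 FPKM. Nup35 ran at 48.8, 69.4, 47.6, 64.0, 43.1, 39.0, 13.8 and 16.6 FPKM, but is uncertain because the coding sequence of Gm4353 is 99.9% identical. Nup188 was lowest at the 8-cell stage (1.64 FPKM) and highest in MII oocytes (15.8 FPKM). Its large scaffold relative Nup205 went the other way and stood at 14.6 FPKM in 8-cell embryos, against 1.55 FPKM in early 2-cell embryos. Nup155 was at 9.86 FPKM in 8-cell embryos, against 2.21 FPKM in zygotes.

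The central channel genes Nup54 and Nup62 encode proteins with phenylalanine-glycine repeats, which carriers bind on their way through. Nup54 stood at 81.6, 94.2, 85.1, 25.6, 26.7, 23.7, 45.2 and 23.8 FPKM, and is uncertain because of the pseudogene Gm15790 (98% identical). Nup62, its channel partner, ran at 110.4, 43.6, 58.6, 32.0, 53.6, 23.5, 43.8 and 28.1 FPKM and overlaps the read-through row Nup62-il4i1, which stayed at or below 0.336 FPKM. Both were highest before the 2-cell stage. Nup62cl, a gene related to Nup62, had another course and was listed at 0 in MII oocytes and zygotes, then at 0.344, 7.44, 2.17, 8.34, 13.65 and 9.18 FPKM.

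On the cytoplasmic side, where mRNA leaves the pore, levels were highest in oocytes for all members except Ranbp2. Nup88 stood at 295, 201, 127, 23.9, 34.9, 48.1, 60.4 and 24.3 FPKM, the highest mean of the nucleoporins among the members. Nup98, which also binds chromatin and the mRNA export factor Rae1, ran at 73.4, 39.4, 47.0, 37.2, 30.5, 22.4, 11.2 and 6.64 FPKM. Nup214, the partner of Nup88, was at 2.45 FPKM in mESC, the lowest of the stages, and 72.5 FPKM in MII oocytes, the highest. Ranbp2, the large filament protein that holds SUMO-modified Rangap1 at the pore, was at 22.9 FPKM in 2-cell embryos, against 1.64 FPKM in early 2-cell embryos.

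The basket genes kept a narrow range, 1.803 on the log2 scale for Nup50 and 1.616 for Nup153. Nup50, which helps importin alpha release its cargo, stood at 31.25, 35.7, 36.9, 28.6, 22.2, 16.3, 23.1 and 9.86 FPKM. Nup153, the basket anchor, was at 12.5, 16.8, 14.8, 10.1, 7.70, 11.2, 4.81 and 15.1 FPKM. The membrane-spanning Nup210 stayed at or below 1.21 FPKM and its relative Nup210l at or below 0.597 FPKM in every stage.

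The importin alpha genes, the adaptors for classical nuclear localization signals, differed in their leading gene between stages. Kpna7, an oocyte and early embryo form in mammals, stood at 133, 162, 186, 6.24, 1.67, 0.606, 0.251 and 0.124 FPKM, the widest range of all members (7.38 on the log2 scale). Kpna3 ran at 127, 149, 136, 41.8, 12.2, 11.6, 20.3 and 19.9 FPKM. Kpna1 was listed at 0 in MII oocytes and then stood at 0.186, 3.18, 45.7, 57.2, 71.6, 30.8 and 7.47 FPKM. So Kpna7 and Kpna3 were high until the early 2-cell stage, and Kpna1 was low there and high from the 2-cell to the 8-cell stage. Kpna2, which imports many cell cycle and transcription proteins, stood at 16.3, 410.05, 158, 338, 449, 408, 109.6 and 98.2 FPKM. It is uncertain because 3 other loci, among them Gm10184 with 99.87% identity, share its coding sequence. Kpna4 was listed at 0 in MII oocytes and zygotes and reached 11.9 FPKM in mESC, and Kpna6 stayed between 1.96 and 6.08 FPKM.

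Taken as shares of the summed FPKM of the 6 genes, Kpna7 made up 47.8% in MII oocytes, 22.4% in zygotes, 38.3% in early 2-cell and 1.41% in 2-cell embryos. Kpna3 made up 45.6%, 20.6%, 28.1% and 9.47% in these stages. Kpna2 held 5.86%, 56.8%, 32.5% and 76.6%, and then 85.2% in 4-cell and 81.7% in 8-cell embryos. Kpna1 made up 10.4% in 2-cell, 10.8% in 4-cell and 14.4% in 8-cell embryos and 18.1% in the ICM. The sum itself was 278, 722, 485, 442, 527, 499, 170 and 141 FPKM. Since Kpna2 is uncertain, so are all these shares. Rn45s was listed at 6967 FPKM in MII oocytes and 6829 FPKM in early 2-cell embryos, and at 0 in zygotes and 2-cell embryos. The share of Kpna2 was higher in zygotes and 2-cell embryos than in MII oocytes and early 2-cell embryos. The part of this split in the shares was not tested.

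**Figure D2:**
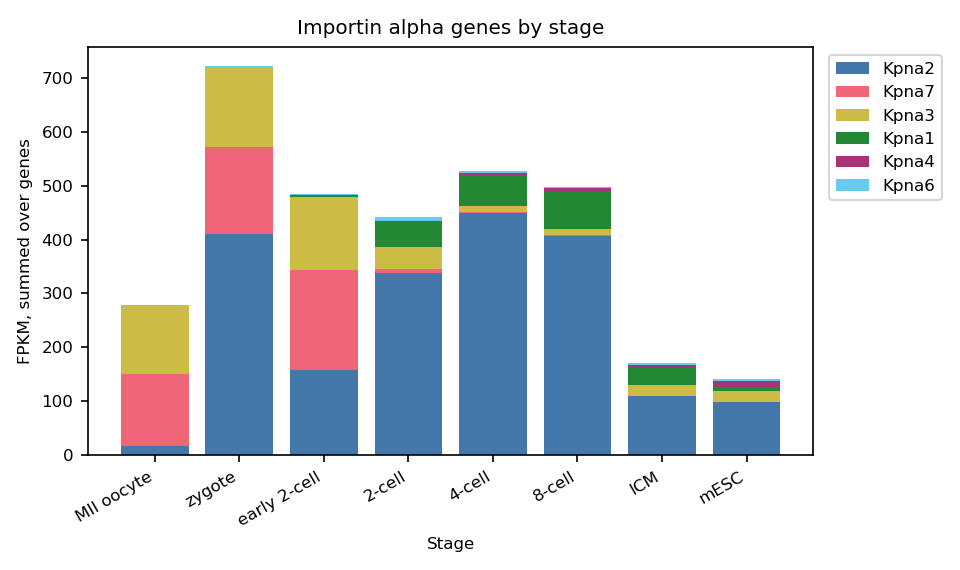
Summed FPKM of the 6 importin alpha genes per stage (bars, from 0), coloured by gene, 1 deposited value per gene and stage. Kpna7 and Kpna3 fill most of the bar in MII oocytes (47.8% and 45.6%), and Kpna2 fills 81.7% in 8-cell embryos. Other loci share the coding sequence of Kpna2, so its part of each bar is uncertain.

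Among the import receptors of the importin beta family most genes were low in the oocyte. Ipo5, a carrier of ribosomal proteins and histones, stood at 16.1, 10.2, 12.7, 52.3, 151, 179, 43.7 and 42.1 FPKM. Tnpo3, the carrier of SR splicing factors, ran at 1.46, 0.956, 1.05, 37.6, 51.9, 36.9, 23.5 and 12.3 FPKM. Ipo8, known for carrying Argonaute proteins and SMADs, had the opposite course, with 95.4, 52.4, 40.3, 24.2, 7.64, 4.97, 3.34 and 6.22 FPKM. Its close relative Ipo7 stood at 45.1 FPKM in 8-cell embryos, against 2.17 FPKM in zygotes, so that Ipo8 was the higher gene of this pair in zygotes and Ipo7 at the 8-cell stage. Kpnb1, importin beta itself, was at 5.47 FPKM in MII oocytes, 19.6 FPKM in 8-cell embryos, 26.5 FPKM in the ICM and 53.0 FPKM in mESC. Tnpo1, the carrier of M9 signals, was highest in MII oocytes (26.4 FPKM) and is uncertain because of Gm6493 (97.2% identical). Ipo4 and Ipo11 were at 27.0 and 24.0 FPKM in 8-cell embryos, against 1.55 and 1.46 FPKM in zygotes, and Ipo4 shares sequence with Gm49378. Ipo9, Ipo13 and Tnpo2 stayed at or below 9.83 FPKM.

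Of the exportins, Cse1l, which returns importin alpha to the cytoplasm, stood at 28.2, 21.7, 17.8, 35.1, 46.8, 65.35, 87.0 and 31.3 FPKM. Xpo1, the receptor for leucine-rich export signals, ran at 5.38, 11.6, 10.4, 66.8, 76.97, 71.5, 26.4 and 41.4 FPKM. Both were higher in 8-cell embryos than in oocytes, with the step for Xpo1 at the 2-cell stage. Xpo5, the carrier of microRNA precursors, was at 13.7 FPKM in MII oocytes, 2.83 FPKM in early 2-cell and 10.4 FPKM in 4-cell embryos. Xpo4, Xpo6 and Xpo7 stayed at or below 14.5 FPKM.

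The Ran cycle had the lowest sum of the carrier roles in oocytes and the highest in the ICM, with 26.7, 51.1, 41.7, 207, 445, 531, 1039 and 972 FPKM. Ran stood at 10.9, 12.5, 20.3, 81.4, 165, 217, 298 and 294 FPKM, and is uncertain because of the pseudogene Gm13461 (97.3% identical). Ranbp1, which assists GTP hydrolysis on Ran, was at 11.8, 36.0, 18.8, 101, 244, 278, 701 and 641 FPKM. Rangap1, the GTPase activator of Ran, stood at 24.6 FPKM in 2-cell embryos, against 1.05 FPKM in early 2-cell embryos. All 3 were thus lower up to the early 2-cell stage than at any later one. Nutf2, which brings Ran back into the nucleus, had 0.457 to 1.94 FPKM up to the 8-cell stage, 12.0 FPKM in the ICM and 15.5 FPKM in mESC. Reads from the coding sequence of Nutf2 cannot be told from those of Nutf2-ps1, whose coding sequence is identical. Nutf2-ps1 was listed at 44.8 to 370.1 FPKM, and the parts outside the coding sequence were not compared.

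To count the steps between stages, a member was taken as past the fold if its log2(FPKM + 1) differed by 1 or more and its larger value was 5 FPKM or more. The 2-cell step was the widest of the consecutive steps, with 19 members higher and 10 lower in 2-cell than in early 2-cell embryos out of 48. The background was 18.8% of all genes higher and 18.6% lower. Of 27 carriers and Ran cycle genes 14 were higher and 2 lower (Kpna3 and Kpna7), with a median difference of 1.25. Of 21 nucleoporins 5 were higher and 8 lower, with a median of -0.36, and the median of all genes was near 0. The 5 nucleoporins were Nup43, Nup62cl, Nup155, Nup205 and Ranbp2, and the 8 were Nup37, Nup54, Nup85, Nup88, Nup93, Nup160, Nup188 and Nup214. These differences rest on 1 value per stage, and the difference between the role groups was not tested. Rn45s was listed at 0 in 2-cell embryos and 6829 FPKM in early 2-cell embryos, and at 6967 FPKM in MII oocytes and 2555 FPKM in mESC but at 0 in the remaining stages. The notes name Cufflinks for 2-cell but not for early 2-cell or MII samples. The part of these differences in the steps that touch such stages was not tested, and zygotes and 8-cell embryos, also set against each other, are alike in both.

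Steps on either side of it were smaller. In zygotes, Kpna2 and Ranbp1 were higher than in MII oocytes and Nup62, Nup85 and Nup107 lower (background 5.86% higher and 10.1% lower). In early 2-cell embryos no member was higher than in zygotes, and Kpna2 and Nup107 were lower (2.36% and 3.77%). In 4-cell embryos 10 members were higher and 5 lower than in 2-cell embryos (11.8% and 8.5%). Among the 10 were Nup85, with 89.5 FPKM in 4-cell and 22.4 FPKM in 2-cell embryos, and Nup133, Ipo4, Ipo5, Ran and Ranbp1. All 6 members grouped under the Y complex were higher in 4-cell than in 2-cell embryos, though only Nup85 and Nup133 passed the fold. At the 8-cell stage Nup62cl was higher than in 4-cell embryos and Ipo13 and Nup62 were lower (3.1% and 4.36%). After scaling each stage to its median, the members past the fold were 3 higher and 2 lower in zygotes than in MII oocytes, and 1 higher and 1 lower in 8-cell than in 4-cell embryos.

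Over the whole span, 21 members were higher and 11 lower in 8-cell embryos than in zygotes, on a background of 23.0% higher and 21.8% lower. Carriers and Ran cycle genes had 15 higher and 3 lower of 27, the 3 being Ipo8, Kpna3 and Kpna7, with a median difference of 1.45. Nucleoporins under the symbol rule had 6 higher and 8 lower of 21, with a median of -0.79. Over all genes the median was 0. Of 32 other measured genes of the pathway, such as Tpr, Pom121, Rcc1 and the mRNA export receptor Nxf1, 16 were higher and 5 lower, with a median of 0.94. Among the nucleoporins outside the rule, Tpr, Ndc1, Seh1l and Aaas were past the fold and higher, and Nupl1 was lower. Pom121, Sec13, Ahctf1, Nupl2 and Rae1 passed it in neither direction, so the lean of the nucleoporins depends on the genes the rule takes. Rcc1, the exchange factor that loads Ran with GTP, stood at 45.3 FPKM in 8-cell embryos and 14.6 FPKM in zygotes.

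**Figure D3:**
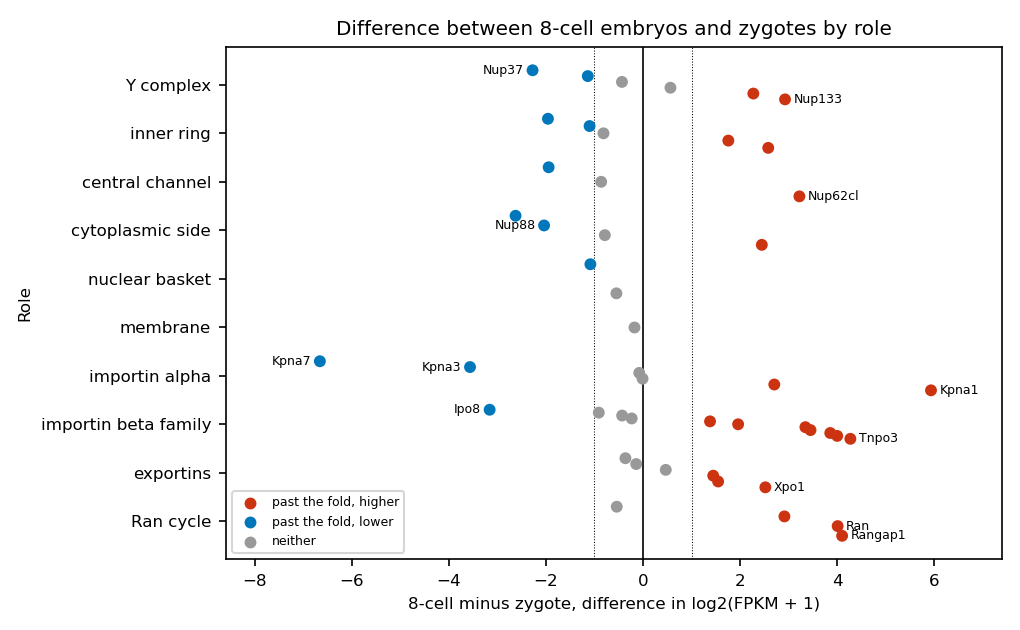
Difference between 8-cell embryos and zygotes in log2(FPKM + 1) for each of the 48 members at 1 FPKM or more in some stage (points), by role, with dotted lines at -1 and 1. Red points (21) are past the fold and higher in 8-cell embryos, blue points (11) past it and lower, and Kpna7 and Kpna1 lie farthest out.

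In the ICM, 4 members were higher than in 8-cell embryos and 10 lower, where 13.7% of all genes were higher and 10.8% lower. The 4 were Ipo9, Nup188, Nutf2 and Ranbp1. Most of the 10 were carriers (Ipo5, Ipo7, Kpna1, Kpna2, Tnpo1, Tnpo2 and Xpo1), beside Nup35, Nup153 and Ranbp2. Ipo5, for one, stood at 43.7 FPKM in the ICM and 179 FPKM in 8-cell embryos. The median was -0.27 for the members and 0.03 for all genes. After scaling each stage to its median, 4 members were higher and 16 lower. Compared with mESC, 10 members were higher in the ICM (Cse1l, Ipo4, Ipo7, Ipo11, Kpna1, Nup50, Nup88, Nup188, Xpo4 and Xpo5) and 2 lower (Kpna4 and Nup153), on a background of 18.9% and 5.42%, but after scaling each stage to its median 3 were higher and 8 lower, so the balance of the directions turned with the scaling. As deposited, the median was 0.29 for members and 0.26 for all genes, so the members were shifted about as much as the table as a whole. With a difference of 1.5 as the limit, 5 members in place of 14 passed for the ICM against 8-cell embryos, and 3 in place of 12 for the ICM against mESC.

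Levels in the injected control embryos can be set beside the uninjected stages only as values, since the tables were normalized separately. Kpna2 differed most of the members, with 8.93 to 12.8 FPKM in the 4 injected 8-cell controls and 408 FPKM in uninjected 8-cell embryos (a difference of -5.12 in log2(FPKM + 1), where the median of all genes was -0.33). It stood at 2.32 to 6.06 FPKM in the 3 injected blastocyst controls, which hold trophectoderm, and 109.6 FPKM in the ICM, freed of it by immunosurgery. Accordingly Kpna1, with 58.2% to 62.1% of the importin alpha sum, led in the injected 8-cell controls, where Kpna2 had 17.2% to 24.0%. Nup35 was at 3.07 to 6.07 FPKM in the injected 8-cell controls and 39.0 FPKM in uninjected embryos. Of 46 members, 3 (Kpna2, Nup35 and Nup62cl) were lower in the injected 8-cell controls by 2 or more on the log2(FPKM + 1) scale. That is 6.52% of members and compares with 4.96% of all genes. In the blastocyst controls 10 of 46 members (21.7%) were lower than in the ICM by this limit, as were 11.4% of all genes. Kpna2 and Nup35 are among the 7 members with near-identical copies, and Nutf2-ps1, another copy, was at 97.5 FPKM in uninjected 8-cell embryos and at most 0.334 FPKM in any injected 8-cell library. Whether injection, culture, the assignment of reads to copies or, for blastocysts, the trophectoderm bears on these values was not tested.

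The Nr5a2 knockdown addressed the genes under this transcription factor, an orphan nuclear receptor, at the 8-cell stage, and no nucleoporin or transport receptor passed the test in it. Nr5a2 itself averaged 5.33 ± 1.54 FPKM in KD and 20.6 ± 5.39 FPKM in control libraries (SD, n = 4 each, limma adjusted p = 0.0143). By exact permutation over 70 arrangements, two-sided, p was 0.0286, the lowest this design can reach. Of 8170 genes tested, 128 were called higher (1.57%) and 57 lower (0.698%) at a limma adjusted p under 0.05, against 0 and 0 of the 45 members tested. After scaling each library to its median, 67 genes were called higher and 81 lower, so the balance of higher and lower calls turned with the scaling. Leaving out any 1 of the 8 libraries moved the total of 185 by over 1.5 times, to between 21 (without control 1) and 285 (without KD 3), with 0 members called each time. At an unadjusted p under 0.05 there were 6 members higher and 1 lower, beside 13.7% and 6.87% of all genes. The median log2 fold change was 0.09 for the members and 0.12 for all genes. Kpna7, Xpo7, Nup210, Nup210l and Nup62-il4i1 were too low to be tested. None of the 30 other pathway genes tested was called, with 3 higher and 1 lower at an unadjusted p under 0.05.

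Xpo1 was the 1 member without overlap between the groups, a state that 8.38% of all genes showed with KD above control and 3.45% with KD below. It stood at 36.2, 34.3, 34.9 and 42.25 FPKM in KD libraries 1 to 4 and at 26.0, 18.5, 14.3 and 33.0 FPKM in controls 1 to 4. All KD values lay above the highest control, by a narrow margin over control 4. The log2 fold change was 0.72 (SE 0.25, 95% interval 0.18 to 1.27, limma adjusted p = 0.142), and 0.58 after scaling each library to its median.

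The 2 larger differences upwards belonged to Nup62cl and Ipo13. Ipo13, a carrier that moves cargo in both directions, stood at 13.3, 9.38, 5.48 and 7.47 FPKM in KD libraries and at 1.54, 2.55, 5.87 and 4.26 FPKM in controls. KD 3 lay below control 3, and the other KD values were above every control. The log2 fold change was 1.16 (SE 0.35, interval 0.39 to 1.93, limma adjusted p = 0.105), and 0.70 with a pseudocount of 5. Nup62cl stood at 6.33, 8.12, 1.58 and 4.58 FPKM in KD libraries and at 0, 1.11, 4.98 and 0.153 FPKM in controls, so the groups overlapped widely. Its log2 fold change was 1.51 (SE 0.55, interval 0.30 to 2.72, limma adjusted p = 0.158), and with pseudocounts of 0.1 and 5 it was 2.85 and 0.64. The other members higher at an unadjusted p under 0.05 were Kpna1, Nup54 and Nup88, with log2 fold changes of 0.49, 0.61 and 0.57.

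Downwards, Ipo4, Nup62 and Nutf2 differed most. Ipo4, a carrier of histones and ribosomal proteins, stood at 44.1, 29.0, 45.2 and 27.4 FPKM in KD libraries and at 73.5, 48.5, 34.3 and 75.4 FPKM in controls. Control 3 lay among the KD values. The log2 fold change was -0.62 (SE 0.28, interval -1.23 to -0.01, limma adjusted p = 0.234). Nup62 stood at 23.5, 28.2, 22.3 and 71.2 FPKM in KD libraries and at 60.0, 30.3, 52.3 and 53.5 FPKM in controls, with KD 4 above every control. Its log2 fold change was -0.55 (interval -1.32 to 0.22, limma adjusted p = 0.395), and -0.93 without KD 4 (limma adjusted p = 0.107). Nutf2 was at 0.145, 1.30, 0.705 and 1.45 FPKM in KD libraries and at 1.46, 1.70, 2.46 and 0.981 FPKM in controls, with a log2 fold change of -0.51 (interval -1.16 to 0.13, limma adjusted p = 0.348). That fold change was -0.29 without KD 1, and -1.04 with a pseudocount of 0.1 and -0.17 with one of 5.

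**Figure D4:**
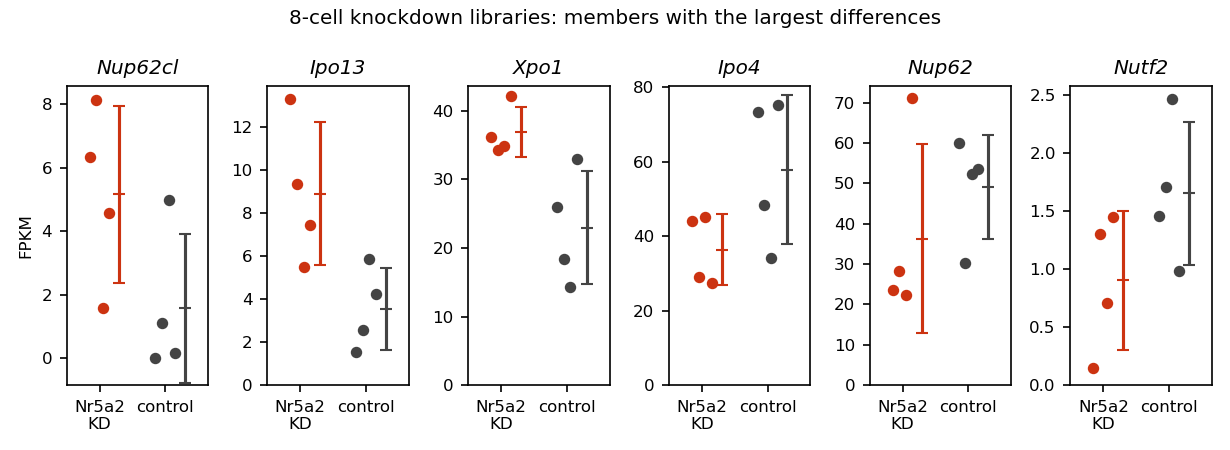
FPKM of 6 members in the 8-cell libraries (points, n = 4 each), Nr5a2 KD left of control, with the mean and SD as bars beside the points. The Xpo1 points of the groups do not overlap, those of the other 5 genes do, and 1 Nup62 value in KD (71.2 FPKM) stands far above the others.

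Ran, Cse1l, Ranbp1 and Ipo5, abundant genes chosen after their values were seen, had narrow intervals. Ran averaged 81.6 ± 4.52 FPKM in KD and 81.3 ± 10.2 FPKM in control libraries (log2 fold change 0.01, 95% interval -0.33 to 0.35). Cse1l averaged 39.0 ± 1.93 FPKM in KD and 37.5 ± 3.46 FPKM in control libraries (0.06, -0.30 to 0.41). Ranbp1 averaged 337 ± 46.4 FPKM in KD and 274 ± 32.9 FPKM in control libraries (0.29, -0.04 to 0.62), and Ipo5 149 ± 19.9 and 166 ± 14.0 FPKM (-0.17, -0.49 to 0.16). For these 4 genes the intervals leave out a change of 1 on the log2 scale in either direction. Epiblast markers summed to 36.7 to 154 FPKM in KD and 151 to 283 FPKM in control libraries, and their relation to the member values was not tested.

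Gata4, a transcription factor of the primitive endoderm, stood at 0 to 0.368 FPKM in Gata4 KD blastocysts and 0.716 to 5.44 FPKM in controls (exact permutation over 35 arrangements, two-sided p = 0.0571, the lowest this design can reach). In limma, 0 of 8782 genes were called higher (0%) and 3 lower (0.0342%), with 202 at an unadjusted p under 0.05, and 0 of the 44 members tested were called in either direction. No member was at an unadjusted p under 0.05, beside 0.957% of all genes higher and 1.34% lower. None was without overlap between the groups, beside 0.945% of all genes with KD above control and 1.43% with KD below. The median log2 fold change was -0.07 for the members and -0.02 for all genes. Beside the 5 genes left out at the 8-cell stage, Nup62cl was too low to be tested.

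The blastocyst values of the members differed between libraries with and without Rn45s, a split that no label names or explains. In the 4 libraries with Rn45s 35 of 44 members (79.5%) were lower than in the 3 without it by the same limma threshold, as were 51% of all genes, with median differences of -0.87 and -0.64. Ran, for example, was at 57.5, 55.6, 22.5 and 26.6 FPKM in KD libraries 1 to 4 and at 34.7, 57.3 and 27.8 FPKM in controls 1 to 3. The libraries without Rn45s (KD 1, KD 2 and control 2) gave the 3 high values. Nup62 had the largest negative fold change, with 33.4, 23.0, 17.6 and 16.6 FPKM in KD libraries and 28.0, 38.5 and 39.8 FPKM in controls. Its log2 fold change was -0.66 (SE 0.42, interval -1.53 to 0.21, limma adjusted p = 1.0), and the difference of means was -0.92 among the libraries with Rn45s and -0.46 among those without. The overlapping row Nup62-il4i1 was at or near 0 in every KD library, and at 1.201, 0.795 and near 0 FPKM in controls 1 to 3. Ipo13 stood at 2.88, 2.55, 1.60 and 0.926 FPKM in KD libraries and at 2.90, 2.68 and 4.09 FPKM in controls (-0.54, interval -1.31 to 0.23, limma adjusted p = 1.0). Its difference was -0.99 with Rn45s and 0.01 without. Nup107 followed with -0.39, and the largest positive fold changes were 0.31 for Xpo6, 0.19 for Nup43 and 0.18 for Kpna3, each with a limma adjusted p of 1.0. With 1 library left out, the fold change of Nup107 ran between -0.60 (without KD 2) and -0.17 (without control 2), and that of Xpo6 between 0.18 (without KD 1) and 0.55 (without control 2). Trophectoderm markers summed to 2202 to 4471 FPKM in KD and 2614 to 3495 FPKM in control blastocysts. Primitive endoderm markers, Gata4 among them, summed to 7.96 to 31.7 FPKM in KD and 26.3 to 38.6 FPKM in control blastocysts. The relation of these sums to the member values was not tested.

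**Figure D5:**
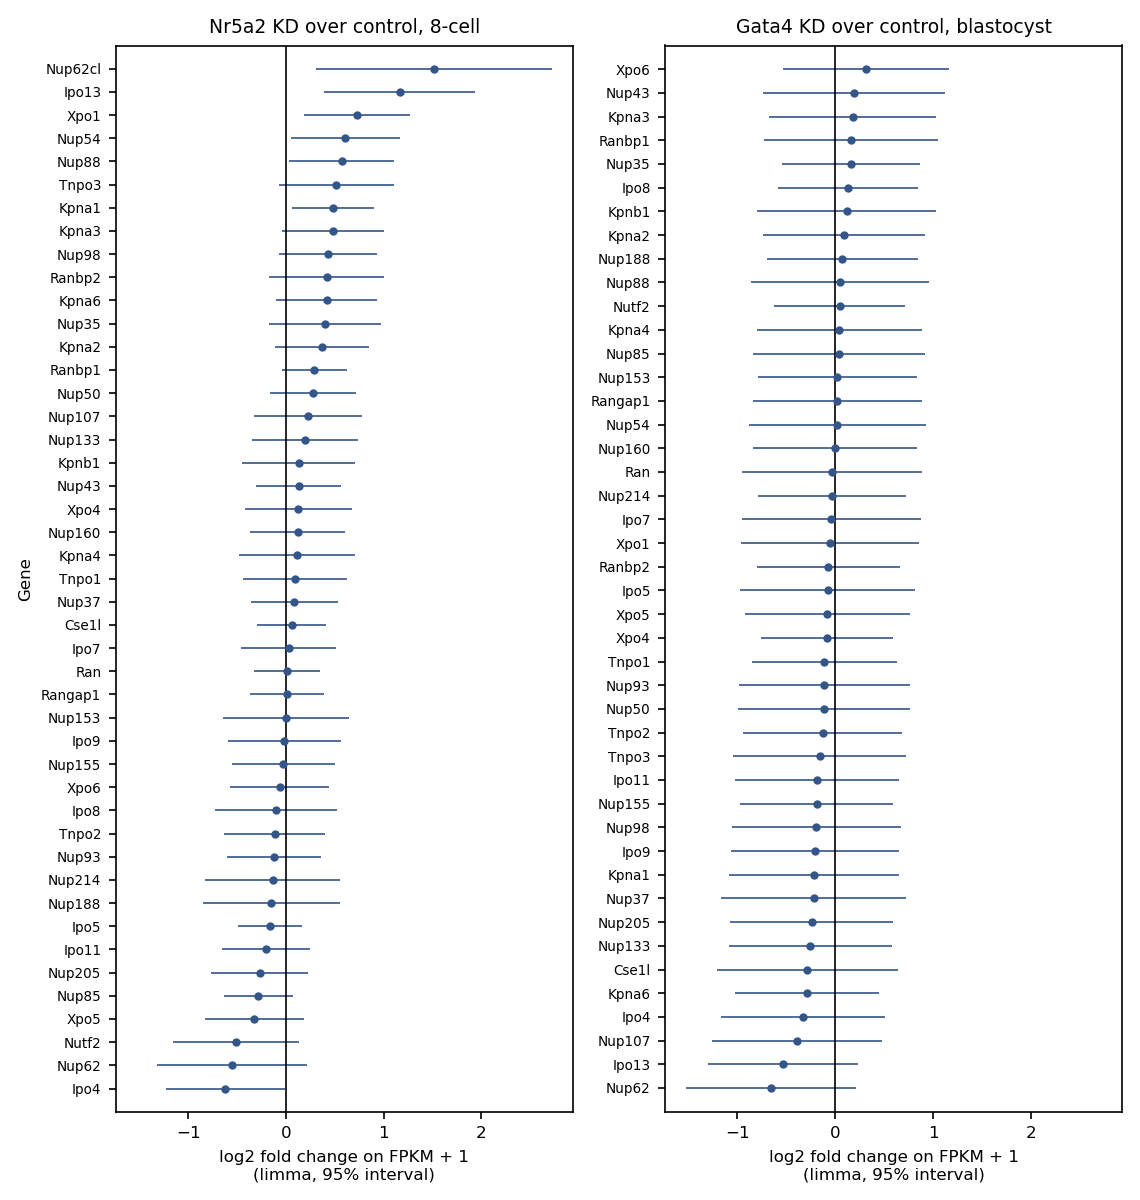
Log2 fold change on FPKM + 1 (points) with its 95% interval from limma (lines) for the 45 members tested in 8-cell embryos, Nr5a2 KD over control (left), and the 44 tested in blastocysts, Gata4 KD over control (right). At the left the intervals of 7 genes lie to one side of 0, and at the right every interval crosses 0; no member has an adjusted p under 0.05.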

How the data were processed

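Per the submitters' processing notes, CASAVA 1.8 made the base calls and STAR 2.4.0 the alignments (build mm9) for the 32 samples. Cufflinks 2.2.1 is named there for 20 samples, and for neither MII oocytes, early 2-cell embryos nor the knockdown libraries of 8-cell embryos. The authors deposited FPKM values, with 1 column per stage (how replicates were combined is not given in the sources used here) or per knockdown library, and 0 value columns were left unmapped. Members and lists were chosen with earlier results of these data known. The labels gave the groups. A gene was tested in a knockdown if the number of libraries with 1 FPKM or more reached the size of the smaller group, and log2(FPKM + 1) was compared by limma 3.58.1 with a variance trend (R 4.3.3). Benjamini-Hochberg adjustment covered every tested gene of a table, and calls needed an adjusted p under 0.05. Fold changes on this scale understate those of low genes. The script was tested on simulated data. There, 46 of 100 genes shifted by 1 on the log2 scale were called in the 8-cell design, and 16 of 100 in the blastocyst design. With a shift of 2 these were 98 and 90 of 100, so smaller changes in members could go uncalled.

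Genes given in full are the 2 highest of each role by mean over stages, the 6 with the widest stage range, and the 3 largest fold changes in each direction per knockdown; any member may be an example. Copies are other transcripts of GENCODE M21 with 95% identity or more that span 50% or more of the coding sequence (minimap2 2.31, 49 of 50 members matched). Alternatives changed the pseudocount, filter, scaling, fold limit, replicate block, presence of Rn45s and each library in turn. Tables and figures were made in Python 3.11.15 (numpy 2.4.6, pandas 2.3.3, matplotlib 3.10.9).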

Additional observations from a re-analysis of the deposited data

Results flagged for a closer look

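Nup62 in 8-cell embryos with Nr5a2 KD had a library far from the others. KD 4 stood at 71.18 FPKM, with the other 3 KD libraries between 22.3 and 28.2 FPKM, and its gap took 0.881 of the range of the group, above Dixon's 95% critical value for 4 samples. This was 1 of 18 groups of named members and libraries checked, and chance flags about 1 in 20. Nup62 was not called with or without this library.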

How the results depend on the processing

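The count of members called stayed at 0 in both knockdowns under every alternative run. The lowest adjusted p-values from limma in 8-cell embryos were 0.0659 for Nup62cl without control 3, 0.0713 for Ipo13 without KD 3 and 0.0783 for Xpo1 without control 4, and in blastocysts 0.434 for Ipo13 with the Rn45s libraries alone. The sign of the fold change held in all alternatives for 27 of 45 members in 8-cell embryos and 9 of 44 in blastocysts. In blastocysts, with 1 library left out, the fold change of Nup43 ran between -0.130 (without control 3) and 0.57, and was -0.077 without KD 1. That of Kpna3 ran between -0.040 (without KD 1) and 0.39, and was -0.011 without KD 2 and -0.25 with the Rn45s libraries alone. Among the genes given in full, leaving out 1 library moved the fold change by over 1.5 times also for Nup62 (without KD 4) and Nutf2 (without KD 1) in 8-cell embryos and for Ipo13 (-0.34 without KD 4), Nup107 and Xpo6 in blastocysts. With a pseudocount of 5, Ipo13 and Nup107 both stood at -0.24 in blastocysts. The cause was not tested. The count of all genes called in 8-cell embryos was 11 with no filter on low values and 108 with a pseudocount of 0.1, and in blastocysts it ran between 1 (without control 1) and 27 (without KD 2) with 1 library left out. Stage counts moved with the limits and the scaling. A difference of 1.5 left 2 members for zygotes against MII oocytes, 0 for early 2-cell embryos against zygotes, 5 for 4-cell against 2-cell embryos, 1 for 8-cell against 4-cell embryos, 5 for the ICM against 8-cell embryos and 3 for the ICM against mESC. A pseudocount of 5 gave 7, 1, 8 and 7 members for the last 4 of these. Median scaling turned the balance of higher and lower members for the ICM against mESC (3 higher and 8 lower, against 10 and 2 as deposited) and for zygotes against MII oocytes (3 and 2, against 2 and 3). It gave 4 and 16, against 4 and 10, for the ICM against 8-cell embryos. Libraries with the same replicate number had low correlations of their deviations (-0.108 to 0.082 in 8-cell embryos and -0.096 to 0.277 in blastocysts). In blastocysts the presence of Rn45s enters these deviations, so they cannot settle whether the samples were paired. With the replicate block 0 members were called in either knockdown, and 55 genes in 8-cell embryos and 18 in blastocysts, against 185 and 3 without it. Median scaling with the presence of Rn45s as a term, chosen after seeing the data, called 0 members. Stage values without replicates and 3 or 4 libraries per group limit what could be detected.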
